A study of Mus musculus with 37 samples.

Results

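Nos2 encodes inducible nitric oxide synthase, and its transcript level was followed here across 5 mouse myeloid cell types given interleukin-10 (IL-10), bacterial lipopolysaccharide (LPS), or both. The gene was picked by its name and by a pattern already seen in these values, so its levels are a description and carry no test. The copy of the deposited RNA-seq table used here ends in a cut line and may be only a part of it. It held 1 Nos2 transcript among 16993 named transcripts, and 1 Nos2 gene among 6509 genes, so the transcript and the gene sum are the same number. Neutrophils were purified from bone marrow, dendritic cells from spleen (sDCs) and macrophages from the thioglycollate-treated peritoneum, while eosinophils and mast cells were differentiated in culture from bone marrow, all of C57Bl6cJ mice.

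Macrophages, neutrophils, sDCs and mast cells each had an untreated group, an IL-10 group (100 ng/ml for 4 h), an LPS group (100 ng/ml for 4 h) and a group given IL-10 for 4 h before LPS was added for a further 4 h (IL-10+LPS). Eosinophils had the untreated and the LPS group. Each of the 18 groups had 2 libraries, and each is given as the authors' mean of both, so no spread, error or p-value can be put on any value. By the study's scheme the groups with LPS were harvested 4 h later than the others, so LPS and time in culture cannot be told apart, whereas LPS and IL-10+LPS were harvested together. Neutrophils came from pooled mice and were kept overnight with GM-CSF, macrophages were selected by adherence, and replicate 1 of the untreated and IL-10 macrophages was taken over from earlier work.

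NOS2 makes nitric oxide from arginine, with NADPH, oxygen and tetrahydrobiopterin, and binds calmodulin so tightly that it runs without a calcium signal. Its output is therefore set largely by how much of the enzyme is made, and the gene is a standard marker of macrophages activated by LPS and interferon-gamma, in which nitric oxide helps to kill microbes. NF-κB and IRF1 are among the best known activators of its transcription. IL-10 acts through STAT3 and is known for lowering many of the genes that LPS switches on, here called the anti-inflammatory response, so whether Nos2 followed those genes in each cell type was the question put to the table. In the annotation of the same build (NCBIM37, mm9) Nos2 lies on the plus strand at chr11:78734289-78773756, a span of 39468 bp with 27 exons. The transcript, ENSMUST00000018610, is 4192 nt long, of which 3432 nt are coding, and translation starts in exon 2.

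With LPS, Nos2 was higher than in untreated cells in macrophages, neutrophils, sDCs and mast cells, and with IL-10 before LPS it was higher again in all 4. Eosinophils were too low to compare. Values are GC-normalized tags per transcript. In macrophages Nos2 stood at 19 untreated, 65 with IL-10, 6709 with LPS and 35477.5 with IL-10+LPS. Neutrophils had 2, 4, 349.5 and 2797 in the same order. Both cell types gave one order of treatments, from untreated through IL-10 and LPS to IL-10+LPS, with neutrophils below macrophages throughout.

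In sDCs Nos2 was listed at 0 untreated and at 0 with IL-10, and stood at 187.5 with LPS and 430 with IL-10+LPS. Mast cells had 0, 1, 185.5 and 238. Eosinophils had 1 untreated and 5 with LPS, which is under the minimum of 10 used for a comparison. Nos2 reached 10 in 10 of the 18 groups, and 3 groups were listed at 0. Without LPS a level of 10 was seen in macrophages alone among these groups. A mean of 238 may come from both libraries or largely from one, which the table does not show, while a mean of 0 requires that both were 0.

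**Figure D1:**
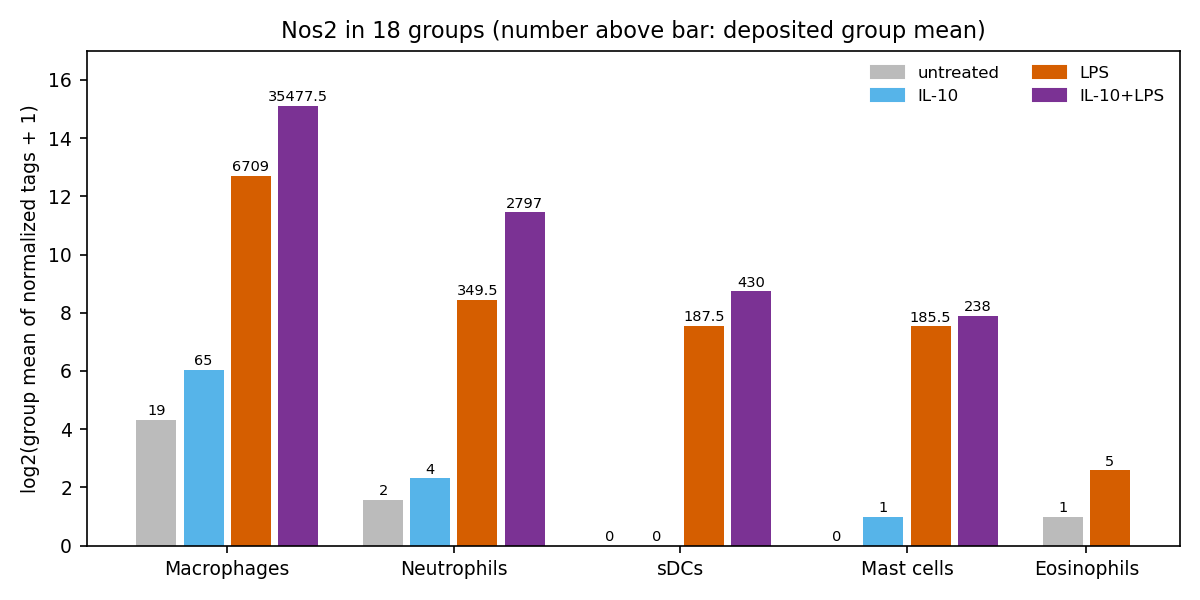
Nos2 level in the 18 groups, drawn as bars of log2(mean + 1) of GC-normalized tags from 0, by cell type and coloured by treatment, with the mean itself above each bar. Each bar is the mean of 2 libraries with no error bar. The macrophage IL-10+LPS bar, at 35477.5, is the tallest, and in each of the 4 cell types that have it the IL-10+LPS bar stands above the LPS bar.

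Ordered by level, macrophages with IL-10+LPS came before macrophages with LPS, then neutrophils with IL-10+LPS (2797) and sDCs with IL-10+LPS (430). Neutrophils with LPS (349.5), mast cells with IL-10+LPS (238), sDCs with LPS (187.5) and mast cells with LPS (185.5) followed, and whether these neighbours differ beyond the spread of libraries cannot be said from means. Per length, Nos2 in macrophages with IL-10+LPS had 8463 tags per kb and ranked 51 of 16791 transcripts with a known length. With LPS alone it ranked 519, at 1600 tags per kb, and in untreated macrophages 13311, at 4.53. In neutrophils with IL-10+LPS it ranked 1261, at 667 tags per kb, against 6104 with LPS alone. In sDCs and mast cells with IL-10+LPS it stayed in the middle of the range, at 103 and 56.8 tags per kb and ranks of 5319 and 7514.

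The LPS response of Nos2 was among the largest in the table. A gene entered a comparison if a group of that cell type reached 10, its change was computed on log2(mean + 1), and it was counted as higher or lower from 2-fold on. In macrophages LPS gave 353 times the untreated level, a log2 change of 8.39 that ranked 6 of 6064 genes, of which 12.8% were at least 2-fold higher with LPS. In neutrophils the ratio was 175 and the log2 change 6.87, rank 16 of 5949 genes (8.71% at least 2-fold higher). The untreated level behind the neutrophil ratio is 2 tags, so its size depends on the pseudocount: with 10 in place of 1 the log2 change was 4.90. No ratio can be given for sDCs and mast cells, which started from 0, but on log2(mean + 1) Nos2 ranked 6 of 6050 genes in sDCs (9.04% at least 2-fold higher) and 1 of 5734 in mast cells (4.76%). The size of these changes from 0 also depends on the pseudocount, and the ranks were not computed with another. In eosinophils, with 1 and 5 tags, Nos2 did not enter the comparison, in which 2.16% of 5559 genes were at least 2-fold higher.

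IL-10 given before LPS was accompanied by more Nos2, not less. Against LPS alone, IL-10+LPS gave 8.0 times the level in neutrophils (log2 3.0), 5.29 times in macrophages (log2 2.40) and 2.29 times in sDCs (log2 1.19). The mast cell ratio was 1.28 (log2 0.36), which is under 2-fold. Nos2 ranked 40 of all 6064 macrophage genes, 21 of 5949 neutrophil genes, 113 of 6050 sDC genes and 810 of 5734 mast cell genes. The shares of genes at least 2-fold higher were 3.18%, 3.06%, 2.61% and 2.88% in that order, and the medians over all genes were −0.01, 0.00, 0.04 and −0.03.

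**Figure D2:**
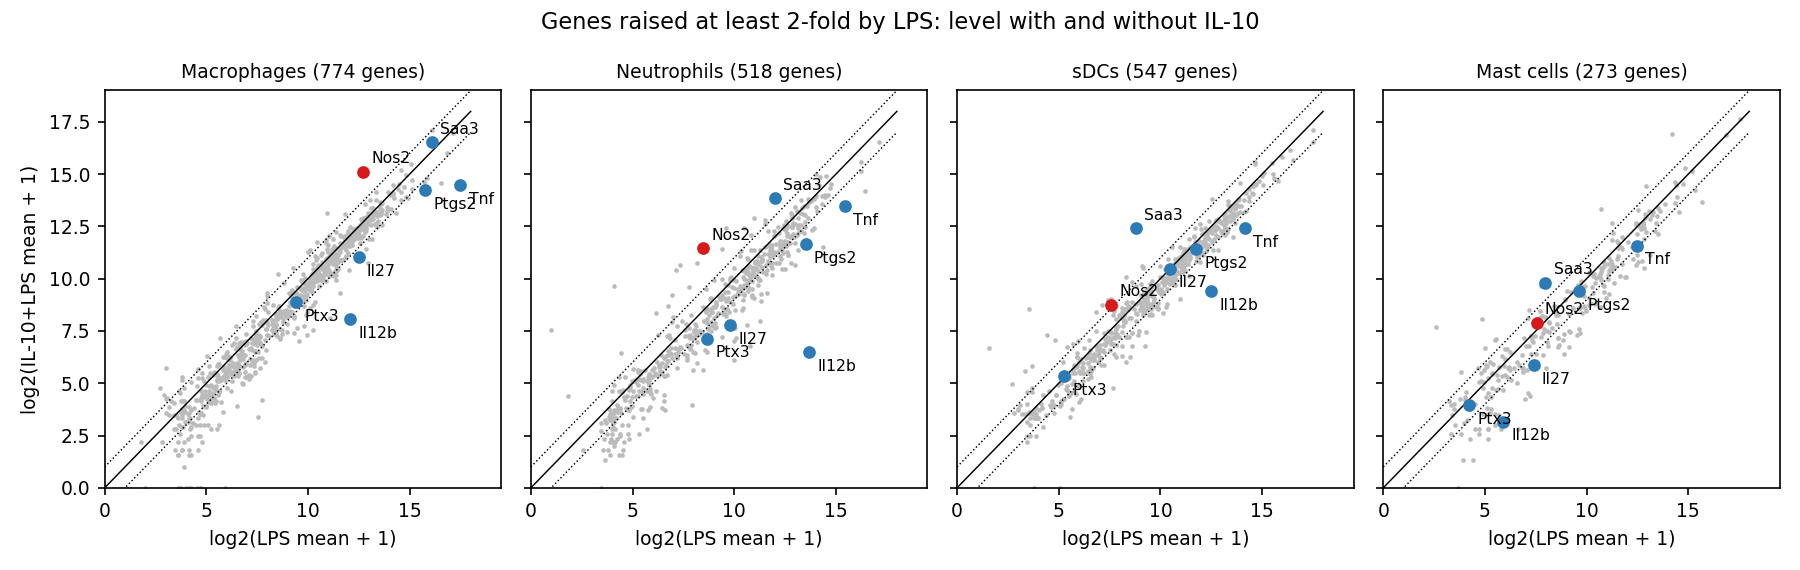
Level with IL-10+LPS against level with LPS, both as log2(mean + 1) of GC-normalized tags, for the genes of each cell type at least 2-fold higher with LPS than untreated. Each point is 1 gene, the solid diagonal marks equal levels and the dotted lines a log2 difference of 1 either way, with Nos2 in red and other effector genes in blue. Nos2 lies above it in all 4 panels, furthest in neutrophils (log2 3.0), while most genes lie below it.

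Nos2 was also set against the genes at least 2-fold higher with LPS than untreated. Of 774 such genes in macrophages, 23 (2.97%) were at least 2-fold higher with IL-10+LPS than with LPS and 140 (18.1%) at least 2-fold lower, with a median log2 change of −0.37. Nos2 ranked 2 of these 774, behind Epb4.1l4b. Of 518 in neutrophils, 22 (4.25%) were higher and 154 (29.7%) lower, the median was −0.64, and Nos2 ranked 5 behind Saa1, Kif1a, Mt2 and Timp1.

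In sDCs 24 of 547 genes (4.39%) were higher and 66 (12.1%) lower, the median was −0.34, and Nos2 ranked 20. In mast cells 14 of 273 (5.13%) were higher and 85 (31.1%) lower, the median was −0.45, and Nos2 ranked 40. At any size of change, 22.6% (macrophages), 17.4% (neutrophils), 22.5% (sDCs) and 28.2% (mast cells) of these genes were higher with IL-10+LPS. The LPS group enters both the choice of these genes and the comparison, so their median is not independent of the choice.

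In all 4 cell types, 89 of 5357 genes (1.66%) were at least 2-fold higher with LPS. Of the 89, 55 (61.8%) were lower with IL-10+LPS than with LPS in all 4 cell types, and 8 (8.99%) were higher in all 4. The same shares over all 5357 genes were not counted, and the LPS group enters both the choice of the 89 and the comparison, so neither share can be called unusual. Those 8 were Nos2, Batf, Casp4, Cfb, Chi3l1, Fas, Map3k8 and Saa3. Any size of difference counted, down to log2 0.04 in sDCs and 0.05 in neutrophils for Map3k8 and 0.06 in neutrophils for Casp4. Among them are an inflammatory caspase that senses LPS (Casp4), complement factor B (Cfb), a death receptor (Fas), a kinase of LPS signalling (Map3k8) and an acute phase protein (Saa3). Nos2 had the largest change of the 8 in macrophages and neutrophils, where Saa3 had 0.43 and 1.83, and Saa3 the largest in sDCs (3.65) and mast cells (1.85).

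IL-10 without LPS could be compared for Nos2 in macrophages alone. In macrophages Nos2 was 3.42 times higher with IL-10, from 19 to 65 tags (log2 1.72), rank 62 of 6064 genes, of which 2.34% were at least 2-fold higher. Neutrophils had 2 and 4 tags, mast cells 0 and 1, and sDCs 0 in both groups, all under the minimum of 10. Measured from these IL-10 groups, the response to LPS was 546-fold in macrophages, against 353-fold without IL-10, and 699-fold in neutrophils, against 175-fold. On the log2 scale the response with IL-10 exceeded that without by 0.68 in macrophages and by 2.26 in neutrophils, where the medians over all genes were 0.02 and 0.04. By the study's scheme IL-10+LPS was harvested 4 h after the IL-10 group. The difference thus also holds a longer time since IL-10 was added, which cannot be told apart from LPS. In mast cells IL-10+LPS stood at 238 against 1 with IL-10, and in sDCs at 430 against 0. Macrophages thus entered the LPS step with more Nos2 transcript when IL-10 had been given, while the neutrophil levels before LPS were 2 and 4 tags.

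These are bulk libraries, in which fewer cells of a type and less RNA per cell cannot be told apart, so macrophage markers were set beside Nos2 in the other cell types. Of 6 macrophage markers the table held 3, Emr1 (F4/80), Cd68 and Mrc1, and none was at 0 in any group. Their summed level was 95118.5 to 219156 in macrophages. Eosinophils had sums of 14891 to 23014, neutrophils 7588.5 to 17932, sDCs 3085 to 6427 and mast cells 1770.5 to 2268. Nearly all of the eosinophil sums was Emr1, at 14338.5 untreated and 22514.5 with LPS. In neutrophils with LPS, Nos2 stood at 5.21% of its macrophage level under the same treatment, Cd68 at 3.30%, Mrc1 at 6.23% and Emr1 at 87.3%. With IL-10+LPS these were 7.88% for Nos2, 5.66% for Cd68, 13.7% for Mrc1 and 39.3% for Emr1. In neutrophils Cd68 went from 3140 with LPS to 4387.5 with IL-10+LPS and Mrc1 from 124.5 to 613, the direction of Nos2, while Emr1 went from 14667.5 to 5157.5.

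In sDCs with LPS, Nos2 stood at 2.79% of its macrophage level, Cd68 at 1.56%, Mrc1 at 7.08% and Emr1 at 8.67%. With IL-10+LPS the sDC shares were 1.21% for Nos2, 2.07% for Cd68, 4.10% for Mrc1 and 10.9% for Emr1. In mast cells Nos2 stood at 2.76% with LPS and 0.671% with IL-10+LPS, against 0.974% and 1.04% for Cd68, 13.1% and 8.04% for Mrc1, and 6.04% and 4.62% for Emr1. In eosinophils with LPS Nos2 stood at 0.0745%, Cd68 at 0.522%, Mrc1 at 0.150% and Emr1 at 134%. With LPS the Nos2 share lay above that of Cd68 and below those of Mrc1 and Emr1 in neutrophils, sDCs and mast cells. With IL-10+LPS it lay below all 3 markers in sDCs and mast cells, and in neutrophils again between Cd68 and Mrc1. The part of any macrophages in the Nos2 levels of these cells was not tested.

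**Figure D3:**
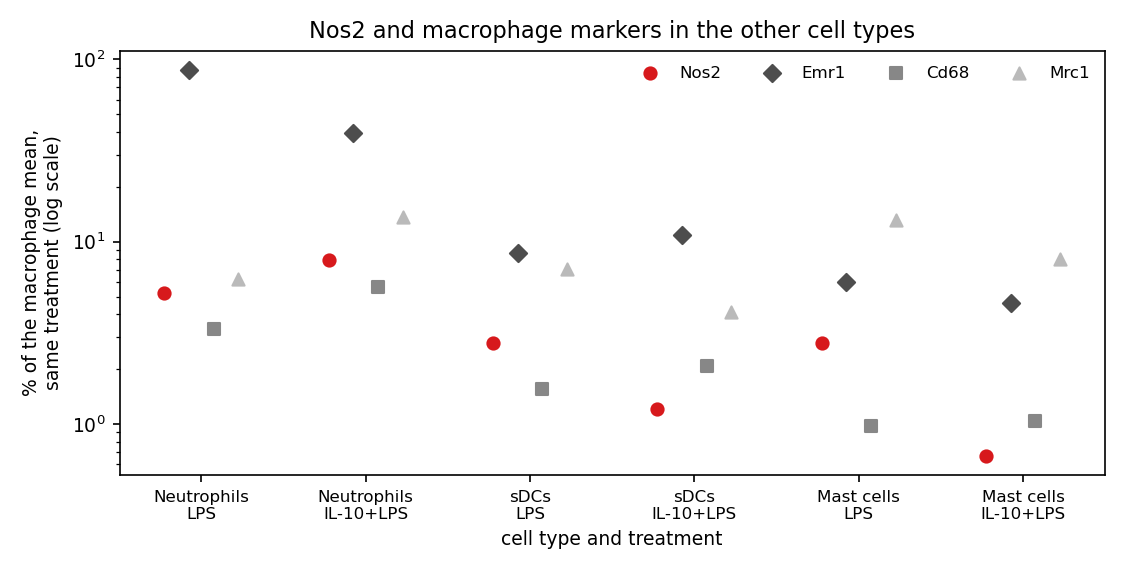
Nos2 and 3 macrophage markers in each other cell type, as a percent of the macrophage level under the same treatment, on a log axis. Each point is 1 gene in neutrophils, sDCs or mast cells with LPS or IL-10+LPS, and the marker shape and colour give the gene. In neutrophils Nos2 stands at 5.21% with LPS and 7.88% with IL-10+LPS. It lies between Cd68 at 3.30% and 5.66% and Mrc1 at 6.23% and 13.7%, while Emr1 lies far higher.

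Apart from sDCs, the labelled cell types carried most of their markers. Neutrophils had the highest Cxcr2, Mmp8 and Mmp9, mast cells the highest Kit and Tpsb2, eosinophils the highest Epx and Ccr3, and macrophages the highest Cd68. The dendritic cell marker Xcr1 was highest in sDCs but low (185.5 to 205.5), and Itgax was higher in macrophages than in sDCs. Clec9a was highest in sDCs without LPS (243.5 untreated, 156.5 with IL-10). With LPS and IL-10+LPS it stood at 49.5 and 27.5 in sDCs, below neutrophils at 103.5 and 60. Ly6g was low in neutrophils (70.5 to 161.5) and similar in eosinophils (114 and 188.5), and neutrophils also held the eosinophil gene Epx at 18734 to 22781.5. The part of such cells in the neutrophil values was not tested. Replicate 2 of the mast cell groups and all sDC libraries were prepared with another kit by the study's account, which the means do not separate.

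Other effector genes that LPS switches on in these cells gave a different picture from Nos2 once IL-10 was added. Of 12 listed, 7 were in the table: Tnf, Il12b, Il23a, Il27 (cytokines), Ptgs2 (the inducible enzyme of prostaglandin synthesis), Ptx3 and Saa3 (secreted innate immune proteins). LPS gave at least 2-fold more in 7 of 7 in macrophages, neutrophils and sDCs, in 6 of 6 that entered in mast cells and in 4 of 5 in eosinophils. The list was made of LPS-induced genes, so these counts follow from its choice. With IL-10+LPS against LPS, 5 of 7 were at least 2-fold lower in macrophages (4.62% of all genes), 6 of 7 in neutrophils (3.88%), 3 of 7 in sDCs (2.08%) and 2 of 6 in mast cells (4.66%). Among genes at least 2-fold higher with LPS the shares at least 2-fold lower were larger, 18.1%, 29.7%, 12.1% and 31.1%. In mast cells 2 of 6 is close to that share. The list medians were −1.53, −1.97, −0.33 and −0.57, and those of the genes higher with LPS were −0.37, −0.64, −0.34 and −0.45.

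Il12b, a subunit of IL-12 and IL-23, stood at 4281.5 with LPS and 266 with IL-10+LPS in macrophages and at 13131 and 88.5 in neutrophils, log2 changes of −4.00 and −7.20. In sDCs and mast cells its changes were −3.11 and −2.72. Tnf differed by −3.02, −1.97, −1.75 and −0.88 in macrophages, neutrophils, sDCs and mast cells, with the macrophage LPS value at the table's ceiling of 185338. Ptgs2, often named beside Nos2 as an inducible effector enzyme, went from 54932.5 with LPS to 19078 with IL-10+LPS in macrophages (log2 −1.53) and from 11700 to 3200.5 in neutrophils (log2 −1.87). Of the 7, Saa3 alone was higher with IL-10+LPS in all 4 cell types, from 438 to 5493 in sDCs and from 4125.5 to 14657.5 in neutrophils. These genes were listed with earlier results in view, so their counts describe them and do not represent LPS targets at large.

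**Figure D4:**
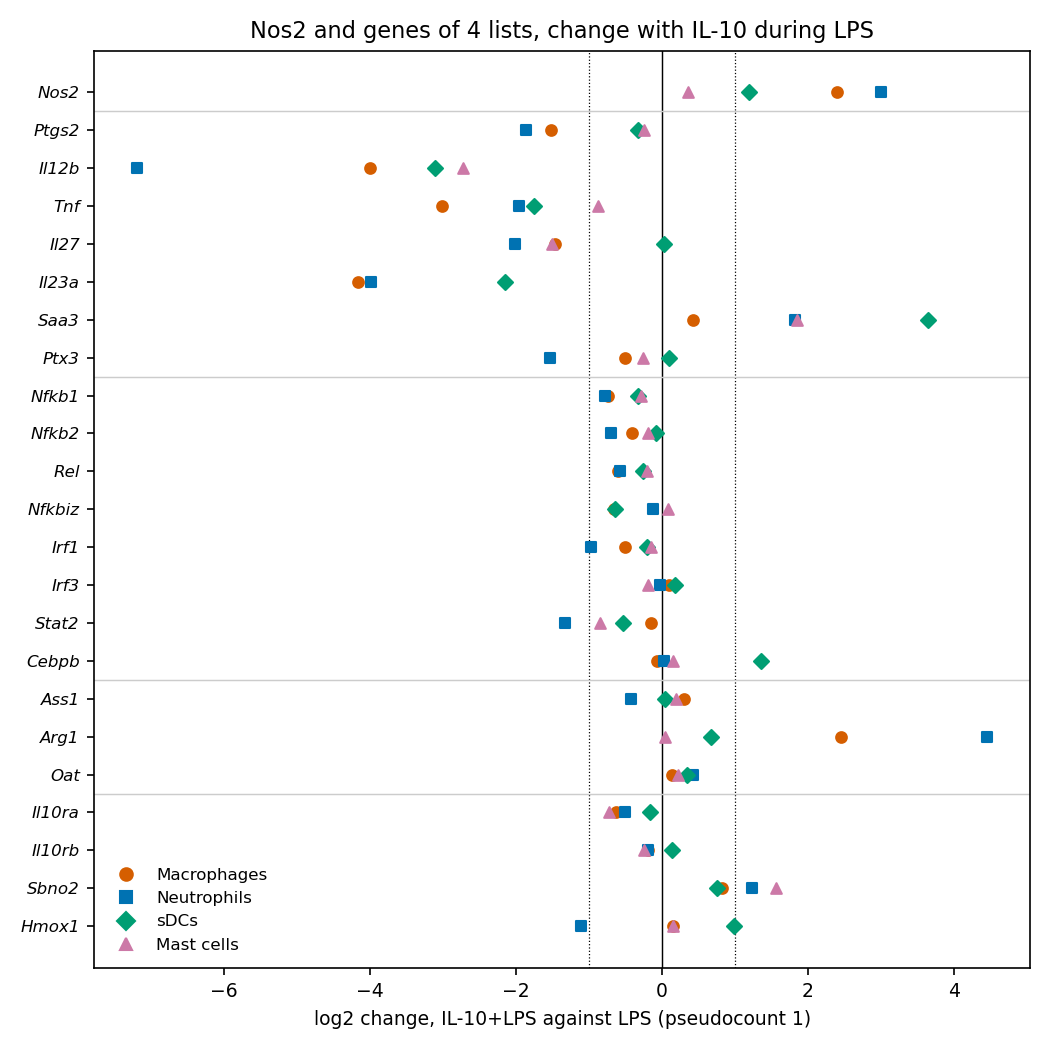
Log2 change with IL-10+LPS against LPS, on log2(mean + 1), for Nos2 and the held effector, transcription factor, arginine and IL-10 receptor or early target genes. Each point is 1 gene in 1 cell type, given by marker shape and colour, and dotted lines mark 2-fold. Nos2 and Saa3 lie on the positive side in all 4 cell types, and Il12b on the negative side, down to −7.20 in neutrophils.

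Among factors reported to act on Nos2 transcription, most of those held were higher with LPS in macrophages and neutrophils. Of 16 listed factors reported here, 8 were in the table: Nfkb1, Nfkb2, Rel and Nfkbiz (NF-κB and its regulators), Irf1, Irf3, Stat2 and Cebpb. LPS gave at least 2-fold more of 7 of the 8 in macrophages (12.8% of all genes), 6 in neutrophils (8.71%), 5 in mast cells (4.76%), 4 in sDCs (9.04%) and 2 in eosinophils (2.16%). With IL-10+LPS against LPS, 0 of these 8 were at least 2-fold higher or lower in macrophages (3.18% and 4.62% of all genes) or mast cells (2.88% and 4.66%), Stat2 was lower in neutrophils (−1.33) and Cebpb higher in sDCs (1.36). The list medians were −0.46, −0.64, −0.23 and −0.19 in macrophages, neutrophils, sDCs and mast cells, below those of all genes. Genes at least 2-fold higher with LPS had medians of −0.37, −0.64, −0.34 and −0.45 in that order. Against those genes the list stood lower in macrophages alone, about level in neutrophils, and higher in sDCs and mast cells.

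IL-10 alone was accompanied by at least 2-fold more of 2 of the 8 factors in macrophages, where 2.34% of all genes were higher, and of 1 in neutrophils (1.26%). Macrophage Irf1 stood at 993 untreated and 4060 with IL-10 (log2 2.03), and Stat2 at 1348.5 and 2770 (log2 1.04). In neutrophils the log2 change of Irf1 was 1.09. Between LPS and IL-10+LPS, macrophage Irf1 went from 11859.5 to 8377. The part of these factors in the Nos2 levels was not tested.

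Genes that supply or use arginine, the substrate of NOS2, were held for 3 of 11 listed: Ass1, which rebuilds arginine from citrulline, Arg1, the arginase that competes with NOS2 for arginine, and Oat, which works downstream of arginase. Arg1 in macrophages stood at 3358.5 untreated, 7570 with IL-10, 944.5 with LPS and 5187 with IL-10+LPS. It was thus lower with LPS (log2 −1.83, where 14.8% of genes were at least 2-fold lower), unlike Nos2, and higher with IL-10+LPS than with LPS (log2 2.46), like Nos2. Neutrophils had 5, 9.5, 2 and 65, a log2 change of 4.46 for IL-10+LPS against LPS. Arg1 was the only one of the 3 past 2-fold in that comparison in either cell type, and none was in sDCs or mast cells, where Arg1 stayed at 17.5 or less in the LPS groups.

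Per length, untreated macrophages had 4.53 tags per kb of Nos2 and 2275 of Arg1. With LPS these were 1600 and 640, and with IL-10+LPS 8463 and 3514. Nos2 thus stood below Arg1 in untreated macrophages and above it in both LPS groups. Ass1 was at least 2-fold higher with LPS in macrophages, 1670 against 4003 (log2 1.26), and in neutrophils, 1303 against 3617.5 (log2 1.47), and in sDCs it stood at 9599 untreated and 5575.5 with LPS.

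The rest of the nitric oxide pathway was held in part, in lists too short for a count of 0 to set them apart from all genes, of which 3.18% were at least 2-fold higher and 4.62% lower with IL-10+LPS than with LPS in macrophages. These shares were 3.06% and 3.88% in neutrophils, 2.61% and 2.08% in sDCs, and 2.88% and 4.66% in mast cells. Of 8 listed genes for tetrahydrobiopterin, the NOS cofactor, the table held Pts, Qdpr and Pcbd2, none at least 2-fold higher with LPS in any cell type. In sDCs Pts was at least 2-fold lower, at 771 untreated and 363 with LPS. Pts, a synthesis enzyme, stood at 1275 with LPS and 521 with IL-10+LPS in neutrophils, where Nos2 went the other way. Of 14 listed NO synthases and regulators 8 were held, with 0 past 2-fold for IL-10+LPS against LPS in the 4 cell types. Among them Ddah1, which degrades inhibitors of the NO synthases, stood at 20 untreated and 65 with LPS in macrophages. The 7 of 14 held targets and detoxifiers of nitric oxide and the 2 of 6 held NADPH oxidase subunits also had 0 past 2-fold in that comparison.

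Input genes of both signals were held in part, in lists also too short to set them apart from all genes. The shares of all genes for IL-10+LPS against LPS are those given for the nitric oxide pathway. Of 14 listed LPS receptor genes and adaptors 5 were held. Irak2 was at least 2-fold higher with LPS in macrophages (12.8% of all genes) and neutrophils (8.71%). Lbp was higher with IL-10+LPS in macrophages (73.5 with LPS against 211). In sDCs Ly96, part of the LPS receptor, stood at 234 untreated and 490.5 with LPS (log2 1.06), and Lbp at 104 and 24 (log2 −2.07). Of 10 listed genes of interferons, their receptors and signalling 5 were held, with 0 past 2-fold for IL-10+LPS against LPS. They were Ifnar1, Ifnar2, Ifngr1, Ifngr2 and Tyk2, so the listed interferon genes Ifnb1 and Ifng were not among them. Of 12 IL-10 receptor genes and early targets 4 were held. Sbno2, an early target of IL-10, was higher with IL-10+LPS than with LPS in all 4 cell types, by log2 1.57 in mast cells, where Nos2 differed by 0.36, and by 1.23 in neutrophils, 0.83 in macrophages and 0.75 in sDCs. Hmox1, heme oxygenase, which is also induced by IL-10, stood at 77414 with LPS and 35953.5 with IL-10+LPS in neutrophils (log2 −1.11), opposite to Sbno2 and Nos2, and the receptor genes Il10ra and Il10rb were within 2-fold in all 4 cell types.

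The genes whose levels ran most like Nos2 over the 18 groups were found by Pearson's r on log2(gene sum + 1) among 6508 genes. Ptx3 led with r = 0.935, ahead of Ptgs2 (0.908), Saa3 (0.892), Ifit1 (0.891) and Hgs (0.886). Tnf ranked 14 with r = 0.852 and Il12b ranked 382 with r = 0.545. After each cell type's mean was subtracted, the first 5 were Ube2f (0.962), Ly96 (0.960), Plagl2 (0.958), Ptx3 (0.950) and Birc3 (0.949). The 18 points share cell types, treatments and the normalization, so these values are given as descriptions. With IL-10+LPS against LPS, Saa3 and Ube2f were higher in all 4 cell types, like Nos2, while Ptgs2 and Ifit1 were lower in all 4. The others differed in direction between cell types. Among them Ptx3, at 678 in macrophages with LPS and 475 with IL-10+LPS, did not follow Nos2 there.

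Of 6 annotated genes that start within 200 kb of its start, 3 code for proteins and all 3 were in the table. Lgals9, which encodes galectin-9 and starts 64159 bp downstream on the opposite strand, stood at 3723.5 untreated, 4209 with IL-10, 6465 with LPS and 6944.5 with IL-10+LPS in macrophages, the order of treatments that Nos2 had there. With LPS against untreated its log2 change was 1.51 in sDCs, 0.91 in neutrophils, 0.80 in macrophages, 0.26 in mast cells and 0.13 in eosinophils. Its log2 change with IL-10+LPS against LPS was 0.10 in macrophages, against −0.28 in neutrophils, −0.43 in mast cells and −0.59 in sDCs. 1810012P15Rik was lower with LPS in macrophages (log2 −1.13) and mast cells (−1.12, where 5.46% of genes were at least 2-fold lower), and Fam58b differed by −0.36 in macrophages and −0.16 in mast cells.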

How the data were processed

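RNA-seq was done on 36 libraries, 2 in each of 18 groups; 1 further sample of the 37, a CD4 T cell sample with no column in the table, was not used. In the deposited table each value is a score. To make it, the authors aligned reads to the transcripts of Ensembl 67 (mm9) using Bowtie 0.12.9, estimated tags for each transcript by RSEM 1.2.1, corrected these for GC content in EDASeq and took the mean of both replicates. All 18 columns share the maximum of 185338, so levels near it are compressed, and all values are multiples of 0.5. Depth per library cannot be read from normalized means, so no interval, floor or limit for a value of 0 is given.

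Of 17015 complete lines (1 more was cut short), 22 name no gene and were dropped. Because the last line was cut, the copy may lack a part of the authors' table. Listed LPS effectors such as Il1b, Il6 and Cxcl10 were not in it. All ranks, shares and counts of held genes are over the genes present, not over the transcriptome. Transcripts were summed by gene with Python 3.11.15, numpy 2.4.6 and pandas 2.3.3, and figures drawn with matplotlib 3.10.9. Changes are on log2(mean + 1), a scale that understates the change of low genes. A gene entered a cell type's comparisons if a group sum there reached 10, and counts use a 2-fold limit. No test was run, since each group has 1 value. The scripts were tested on simulated data.

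Genes named are Nos2, the held members of lists on NO synthesis, its inputs and other LPS effectors, the 5 most correlated genes by each of 2 measures, genes within 200 kb, and markers. The genes ranking above Nos2, those higher in all 4 cell types and the choice of values printed were settled after the values were seen. A listed transcription factor is not reported here. Members and lists were chosen with earlier results of these data known. Comparisons within a cell type share groups. The position of Nos2 is from GENCODE vM1 on NCBIM37. The alternatives tried were pseudocounts of 0.5 and 10, minimums of none and 50, single transcripts, and size factors.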

Additional observations from a re-analysis of the deposited data

How the results depend on the processing

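No paired analysis was possible because the table holds 1 mean per group, and for the same reason no replicate could be left out. Over 11 Nos2 results, 44 values were computed under other settings (pseudocounts of 0.5 and 10, the highest transcript alone, size factors of 0.928 to 1.15), and 0 were reversed. That count was largely fixed in advance. Nos2 has 1 transcript, so the highest transcript alone repeats the reported value, and a pseudocount cannot change the sign of a difference between a pair of groups. With a pseudocount of 10 the log2 change with LPS was 4.90 in neutrophils (6.87 with 1) and 0.45 in eosinophils (1.58 with 1), as follows from untreated levels of 2 and 1 tags. The other 42 values stayed within 1.5-fold of those reported. With a pseudocount of 10 the LPS response with IL-10 exceeded that without by 1.03 in macrophages and 2.74 in neutrophils. Changes from a level of 0, in sDCs and mast cells, have no ratio, and they were not computed under the other settings.

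Counts of all genes depended on the minimum and on the unit. Genes at least 2-fold higher with LPS in eosinophils were 120 with the minimum of 10, 228 with none and 67 with 50. Genes higher with LPS and at least 2-fold lower with IL-10+LPS were 140 in macrophages with the minimum of 10 and 82 with 50, and 85 in mast cells with 10 and 136 with none. Counted as single transcripts, those higher with LPS numbered 2993 (macrophages), 2206 (neutrophils), 2210 (sDCs), 1413 (mast cells) and 767 (eosinophils), and those also lower with IL-10+LPS numbered 869, 865, 517 and 444 in the first 4. A gene can count there more than once.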
